A study of Danio rerio with 30 samples.

Results

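The comparison asked how gene expression differed between zebrafish given chlorpyrifos and copper together and zebrafish given chlorpyrifos without copper. Chlorpyrifos (CPF) is an organophosphate insecticide. Its active metabolite blocks acetylcholinesterase, the enzyme that breaks down the transmitter acetylcholine. The arrays were chosen by their treatment labels alone: 3 arrays of fish given CPF 0.25 and Cu 0.25 together (the mixture) and 3 arrays of fish given CPF 0.25, 6 of the 30 arrays of the study. By their labels both groups carried the same CPF and differed in copper (Cu), while their title batches differed in part, as given below. The fish were adults of the AB strain, 1 year old, and RNA was hybridized to Affymetrix zebrafish arrays. Other groups used for comparison were Cu 0.25 against untreated control, CPF 0.1 with Cu 0.25 against CPF 0.1, and CPF 0.6 with Cu 0.25 against CPF 0.6, with 3 arrays each. No concentration unit is given in the sources used here.

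Copper is an essential metal that damages olfactory sensory neurons of fish, whose cilia are open to the water. Each such neuron carries odorant receptors coupled to G proteins, and calcium-binding proteins buffer the signal that follows. Cells that hold damaged proteins often raise chaperones, which refold them, and the proteasome, a barrel of core subunits with regulatory caps that degrades proteins marked with ubiquitin.

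The labels give 2 accounts of the tissue, the olfactory rosettes in one field and, in another, rosettes together with olfactory bulbs and telencephalons. Levels below are log2 values after GCRMA, a background correction and normalization for this array type, and differences are mixture minus CPF 0.25 adjusted for title batch. Genes of both accounts were measurable. Of 9 markers of olfactory sensory neurons on the array, 7 passed the filter on low values (above 4 log2 units on at least 3 of the 30 arrays). So did 18 of 23 markers of bulb and telencephalon neurons. The filter was also passed by 10531 of all 15502 probe sets and by 15 of 48 liver markers. Passing it does not tell which tissue was taken. Nothing in the labels says whether the arrays of a group came from separate exposures, so the p-values below describe the spread between these arrays. The sample titles carry dates, which are treated here as 3 title batches without knowing what was done on them. The mixture had 1 array in each title batch, and CPF 0.25 had 1 array in batch 1, 2 in batch 2 and none in batch 3. Correlations between arrays ran from 0.983 to 0.991 within the 2 groups and from 0.98 to 0.989 between them.

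Arrays of CPF 0.25 stood apart in digestive enzymes. The mean level of 9 exocrine pancreas markers was 3.93, 4.74 and 3.90 on the mixture arrays, against 7.11, 4.05 and 6.03 on the CPF 0.25 arrays (log2 units, replicates 1 to 3). CPF 0.25 replicates 1 and 3 were thus above the range of the 24 arrays of the other groups, which was 3.80 to 5.85. The trypsin gene prss1 was at 6.36, 7.92 and 6.08 on the mixture arrays and at 9.62, 6.60 and 9.23 on the CPF 0.25 arrays. Between 4 and 7 of the 9 pancreas markers lay at or below 4 on the mixture arrays, against 0, 5 and 0 on the CPF 0.25 arrays. The 15 liver markers averaged 6.08 to 6.42 on the mixture arrays and 6.46 to 7.16 on the CPF 0.25 arrays. On the 24 arrays of the other groups they ran from 5.73 to 6.83, a range that only CPF 0.25 replicate 1 exceeded. With no array left out, fitted differences of mixture minus CPF 0.25 had medians of -1.49 (pancreas list) and -0.33 (liver list). No member passed the test. Because of the pancreas levels, results are also given without CPF 0.25 replicates 1 and 3. That leaves 1 CPF 0.25 array, assumed to vary like the arrays of the other groups.

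**Figure D1:**
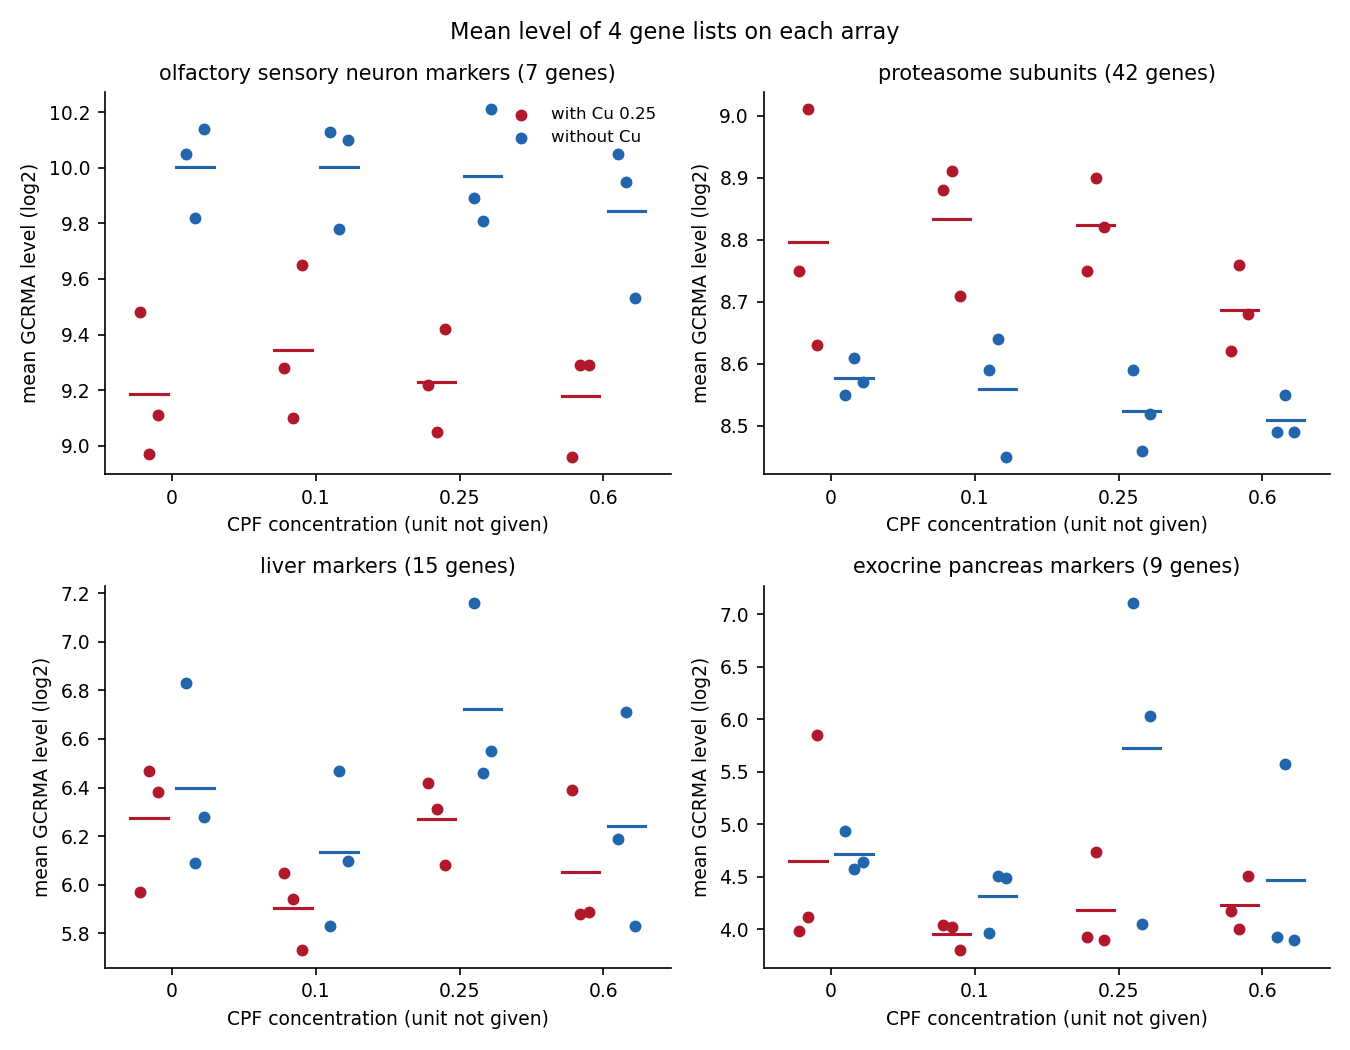
Mean log2 level of 4 gene lists on each array (points) with the group mean (line), for groups with Cu 0.25 (red) and their counterparts without copper (blue) at CPF 0, 0.1, 0.25 and 0.6. At CPF 0.25 the olfactory sensory neuron markers are lower and the proteasome genes higher with copper, without overlap, while 2 of the 3 blue pancreas values stand above the other arrays.

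Copper on top of CPF 0.25 changed few genes at the threshold used, an adjusted p under 0.05 in limma. Of 10531 probe sets tested, 42 passed (0.399%), 17 with higher levels in the mixture (0.161%) and 25 with lower levels (0.237%). The smallest adjusted p was 0.00506, and every called difference was at least 0.42 log2 units. At an unadjusted p under 0.05, 631 probe sets were higher (5.99%) and 406 were lower (3.86%). Levels of the 2 groups did not overlap for 7.89% of probe sets in the direction of higher mixture values and for 7.82% in the other direction. Of the 42 called probe sets, 41 did not overlap. The 42 included 35 genes, 16 higher and 19 lower, and 7 probe sets with no single gene name.

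The count depended on each array. Leaving out any 1 of the 6 arrays left between 0 and 16 called probe sets, with 0 when mixture replicate 2 was left out. In the same limma fits all 42 kept an unadjusted p under 0.05, and the median size of their differences stayed within 0.95 to 1.05 of the values given here. The 42 were picked by their p on these same arrays, most of which each of these fits reuses. Both measures were thus close to fixed beforehand and are no separate support. The fits below also reuse arrays on which the 42 were picked. Without CPF 0.25 replicates 1 and 3, 9 probe sets passed, 1 of them among the 42, while 39 of the 42 had an unadjusted p under 0.05 and the median size was 1.03 of the value here. Within title batch 1, with 1 array in each group and the spread taken from other groups, 0 passed and the median size of the 42 was 1.11 of the value here. Within title batch 2, with 1 mixture and 2 CPF 0.25 arrays, 0 passed and their median size was 0.94. Without the arrays of title batch 3, 8 probe sets passed, 7 of them among the 42. Of the 32 genes called through their brightest probe set, 23 kept the call in a fit with no title batch term. With title batch as a random block, whose correlation is estimated, 20 kept it. Only 8 of the 32 kept it with the 2 groups fitted alone, and 5 without the arrays of title batch 3.

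In the mixture 2 of the 7 measured marker genes of olfactory sensory neurons were called, both lower, against 0.399% of all probe sets. List counts here and below use the brightest probe set of each gene, and by that measure 32 of all 6448 genes were called. The calretinin gene calb2a, which encodes a calcium buffer of neurons, had 9.38, 9.26 and 9.58 in the mixture and 10.96, 10.84 and 11.23 in CPF 0.25. It was 3.10-fold lower (log2 difference -1.63 ± 0.30, SE, adjusted p 0.0225 in limma). The G-protein gamma subunit gene gng13b, part of olfactory signal transduction, had 10.18, 9.99 and 10.45 in the mixture and 10.99, 11.12 and 11.0 in CPF 0.25. All 3 mixture arrays were below all 3 CPF 0.25 arrays for both genes. Without CPF 0.25 replicates 1 and 3 the differences were -1.53 for calb2a and -1.01 for gng13b, and neither passed. In bulk tissue, fewer cells of a type and less RNA per cell cannot be told apart.

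Lower levels that did not pass the test were measured for 2 further olfactory markers. For s100z, an S100 calcium-binding protein taken here as a marker of olfactory neurons, levels were 9.95, 9.38 and 10.36 in the mixture and 11.21, 11.20 and 12.09 in CPF 0.25. Its groups did not overlap, with a log2 difference of -1.55 ± 0.40 and an adjusted p of 0.112 in limma. Olfactory marker protein, ompb, which labels mature ciliated neurons, had 5.24, 4.59 and 5.15 in the mixture and 5.67, 5.61 and 6.66 in CPF 0.25 (adjusted p 0.304 in limma). The list of olfactory sensory neuron markers split in 2, a grouping made by the values themselves. Its members calb2a, s100z, ompb and gng13b had differences between -0.87 and -1.63, whereas gnai2b, gnao1a and nsg2 were between -0.03 and -0.09. Why the members differed was not tested. Most odorant receptor genes were at the low end of the array, and no fold is given for them. The gene or42c4 was listed at 2.81, 2.14 and 2.88 on the mixture arrays and at 4.57, 4.14 and 4.69 on the CPF 0.25 arrays. It was among the called genes (adjusted p 0.0289 in limma), but its mixture values lie under the filter level of 4, and it passed that filter through arrays where it was higher. The related gene or42c1 was listed at 3.72, 3.53 and 3.75 in the mixture and at 4.38, 3.99 and 4.78 in CPF 0.25. Of 23 receptor genes on the array 6 passed the filter. Over all 23, with no filter, the median difference was -0.33 and 2 were called, against 44 of all 15502 probe sets.

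Calcium-binding and conjugating genes were among the abundant transcripts that were lower in the mixture. The parvalbumin gene pvalb5, encoding a fast calcium buffer, had 12.48, 11.82 and 12.60 in the mixture and 13.64, 13.73 and 13.73 in CPF 0.25. The CPF 0.25 arrays lay within 0.1 of each other, and the mixture arrays were all lower (2.63-fold, log2 difference -1.39 ± 0.28, adjusted p 0.0299 in limma). Its relative pvalb8 had a log2 difference of -1.20 ± 0.49 that did not pass (adjusted p 0.398 in limma). The cytosolic sulfotransferase sult2st1, an enzyme that adds sulfate to steroids and foreign compounds, had 9.80, 8.99 and 9.83 in the mixture and 11.48, 11.30 and 11.15 in CPF 0.25. That is 3.27-fold lower (log2 difference -1.71 ± 0.38, adjusted p 0.0451 in limma), while its close relative sult2st2 had -1.47 ± 0.35 and missed the threshold (adjusted p 0.0817 in limma). Of 21 calcium-binding genes 2 passed, calb2a and pvalb5, against 0.399% of all probe sets, and the list's median difference was 0.03. Of 5 sulfotransferases measured 1 passed, sult2st1. The differences of pvalb5 and sult2st1 were -1.53 and -1.89 without CPF 0.25 replicates 1 and 3, neither past the threshold.

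The lowest called difference with a gene name belonged to abhd2b, a serine hydrolase of the abhydrolase family. Its levels were 5.78, 5.44 and 6.37 in the mixture and 7.76, 7.86 and 8.28 in CPF 0.25, a 4.17-fold lower level (log2 difference -2.06 ± 0.30, adjusted p 0.00506 in limma). The uncharacterised gene si:dkeyp-115e12.6 had the same adjusted p with a smaller difference, -1.13 ± 0.17, from 5.76, 5.70 and 5.84 in the mixture and 6.85, 6.98 and 6.81 in CPF 0.25. These 2 genes kept an adjusted p under 0.05 in 5 of the 6 fits that left out 1 array. They had -2.00 and -1.25 without CPF 0.25 replicates 1 and 3 and did not pass. Of all 32 genes called through their brightest probe set, 19 kept it in 0 of the 6 fits.

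Transcription factors, a secreted protein and signalling enzymes made up most of the remaining lower genes. The stress-related transcription factor gene atf5a, which in mice is needed for the maturation of olfactory sensory neurons, had 10.65, 10.31 and 10.74 in the mixture and 11.83, 11.95 and 12.14 in CPF 0.25. The groups were apart by more than 1 log2 unit at their nearest arrays, and the fitted difference was -1.29 ± 0.26 (adjusted p 0.0311 in limma). The follistatin-like gene fstl5 fell by 1.26 ± 0.26 and the nuclear factor gene aff3 fell by 1.05 ± 0.20. The clock repressor gene nr1d2a (Rev-erb beta) had 7.09, 6.91 and 6.96 in the mixture and 7.69, 7.91 and 8.05 in CPF 0.25 (log2 difference -0.95 ± 0.20, adjusted p 0.0399 in limma). It was the 1 called gene of 18 in the circadian list, against 0.399% of all probe sets. With an estimated correlation nr1d2a missed the threshold (adjusted p = 0.0546 in limma). The tetraspanin gene tspan2a fell by 0.89 ± 0.18. Both copies of inositol hexakisphosphate kinase 2 were lower, ip6k2a with a log2 difference of -0.68 ± 0.14 and ip6k2b with -0.55 ± 0.12. The called genes zgc:101731 and zgc:77439, whose names describe no role, had differences of -0.86 and -0.73.

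A further 3 genes were called through a probe set that was not their brightest. For nfil3-6, a bZIP repressor gene of the Nfil3 family, that probe set differed by -1.18 ± 0.21 and the brightest by -0.82 ± 0.24, which did not pass. For ddx61 the called probe set differed by -0.77 ± 0.16 and the brightest by -0.04 ± 0.11, and for si:dkey-73n10.1 the values were -0.67 ± 0.13 and -0.41 ± 0.28. The lowest difference of all was -2.39, in a probe set with no gene name.

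**Figure D2:**
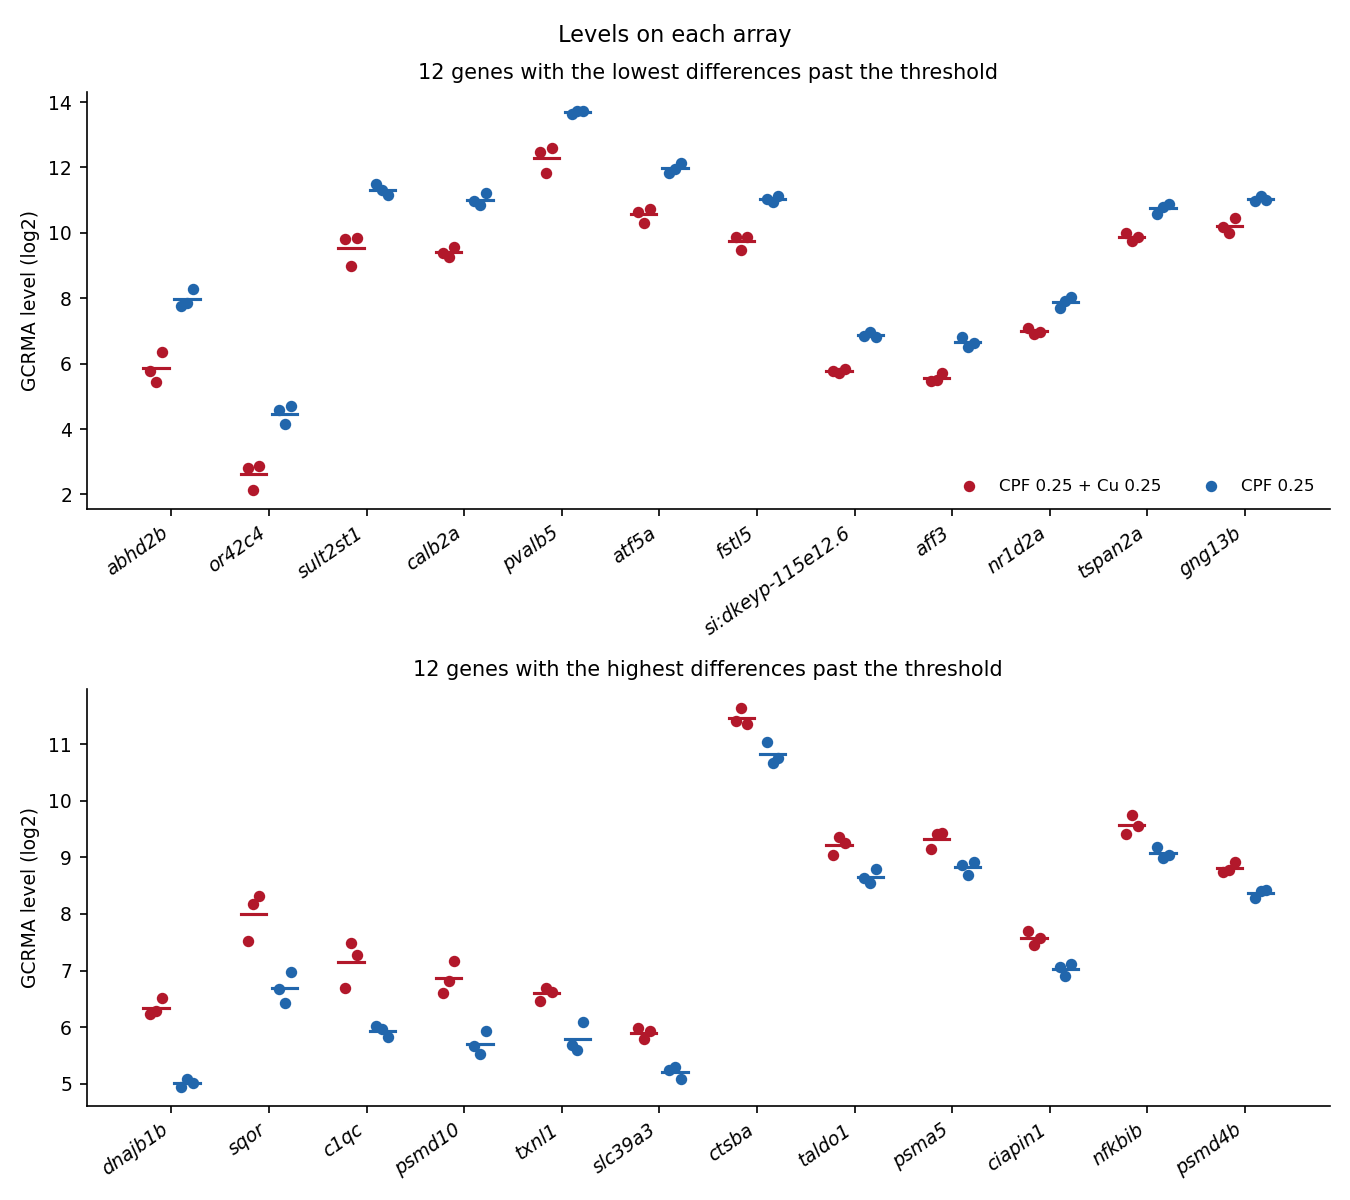
Levels on each of the 3 CPF 0.25 + Cu 0.25 arrays (red, left in each pair) and the 3 CPF 0.25 arrays (blue) in log2 units, with group means as lines, for the 12 lowest and 12 highest differences past the threshold. The groups do not overlap in any of the 24 genes, which was a condition for being drawn, and the gap is widest for abhd2b among the lower genes and for dnajb1b among the higher ones.

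Of 32 genes of protein folding that were measured, 1 passed the test, against 0.399% of all probe sets. The cochaperone gene dnajb1b, an Hsp40 that feeds clients to Hsp70, had 6.24, 6.28 and 6.52 in the mixture and 4.95, 5.08 and 5.01 in CPF 0.25. That is 2.72-fold higher, with a log2 difference of 1.44 ± 0.29 and an adjusted p of 0.0311 in limma. The call of dnajb1b was lost with no title batch term, and with an estimated correlation (adjusted p = 0.0922 in limma). The inducible Hsp70 gene hsp70.3 had a larger and noisier difference. Its levels were 7.81, 7.10 and 7.57 in the mixture and 4.43, 5.21 and 3.99 in CPF 0.25, with no overlap, but the log2 difference of 3.02 ± 0.88 had an adjusted p of 0.173 in limma. Among arrays without copper this gene varied widely, with a mean of 5.77 ± 1.62 (SD, n = 3) in control fish. The mitochondrial pair hspd1 (Hsp60) and hspe1 (Hsp10) had differences of 0.58 ± 0.19 and 0.57 ± 0.17 and did not pass. In the list of heat shock and chaperone genes 27 of 32 differences were positive, 8 were higher at an unadjusted p under 0.05, and the median was 0.14. Over all 6448 genes measured, 57.5% of differences were positive, 7.91% were higher at that p, 3.37% were lower, and the median was 0.03. For dnajb1b the difference was 1.54 without CPF 0.25 replicates 1 and 3, which did not pass. The cochaperone fkbp5, an immunophilin induced by glucocorticoids, went the other way, at -0.61 ± 0.25.

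Nearly all proteasome genes had positive differences, most of them small. Of 42 genes with proteasome subunit names, 41 had positive differences, 32 had an unadjusted p under 0.05 in that direction, and the median was 0.34 log2 units. Over all genes the shares were 57.5% and 7.91%. The adjusted test was passed by 3 of the 42, against 0.399% of all probe sets. With no title batch term 1 passed, with title batch as a random block 1, and with the 2 groups fitted alone 0. With an estimated correlation psma5 had an adjusted p = 0.168 and psmd4b an adjusted p = 0.148 in limma. The first, psmd10, encodes gankyrin, a chaperone of the assembly of the regulatory cap, and had 6.6, 6.82 and 7.17 in the mixture and 5.66, 5.53 and 5.94 in CPF 0.25 (2.28-fold, log2 difference 1.19 ± 0.20, adjusted p 0.0180 in limma). The second, psma5, encodes an alpha subunit of the core and had 9.15, 9.41 and 9.43 in the mixture and 8.86, 8.69 and 8.92 in CPF 0.25 (1.53-fold, adjusted p 0.0180 in limma). The third, psmd4b, encodes a receptor for ubiquitin chains in the cap, and rose by 0.52 ± 0.10. These genes, in that order, had 1.26, 0.70 and 0.47 without CPF 0.25 replicates 1 and 3, and none passed.

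The shift was of similar size in each group of subunit names. Median differences were 0.40 for the 8 core alpha genes and 0.34 for the 12 core beta genes. They were 0.32 for the 8 genes with psmc names, which are base ATPases but for 1. For the 14 genes with psmd names, which include the assembly chaperone gene psmd10, the median was 0.34. The exception among the psmc names was psmc3ip, a recombination factor and no subunit, taken in by its name. It had the only negative difference, -0.31 ± 0.23. A split within the beta genes was noticed after the values were seen. The 7 standard beta subunits psmb1 to psmb7 had differences of 0.31 to 0.52, all at an unadjusted p under 0.05. The 5 beta genes of the interferon-inducible immunoproteasome type (psmb8a, psmb9a, psmb10, psmb12 and psmb13a) had differences of 0.07 to 0.37, none at that p. The 2 sets were not tested against each other, and the second had the larger standard errors. The mean level of the 42 genes was 8.75, 8.90 and 8.82 on the mixture arrays, against 8.59, 8.46 and 8.52 on the CPF 0.25 arrays, without overlap. The median difference was 0.41 without CPF 0.25 replicates 1 and 3, and from 0.25 to 0.46 over all settings tried.

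**Figure D3:**
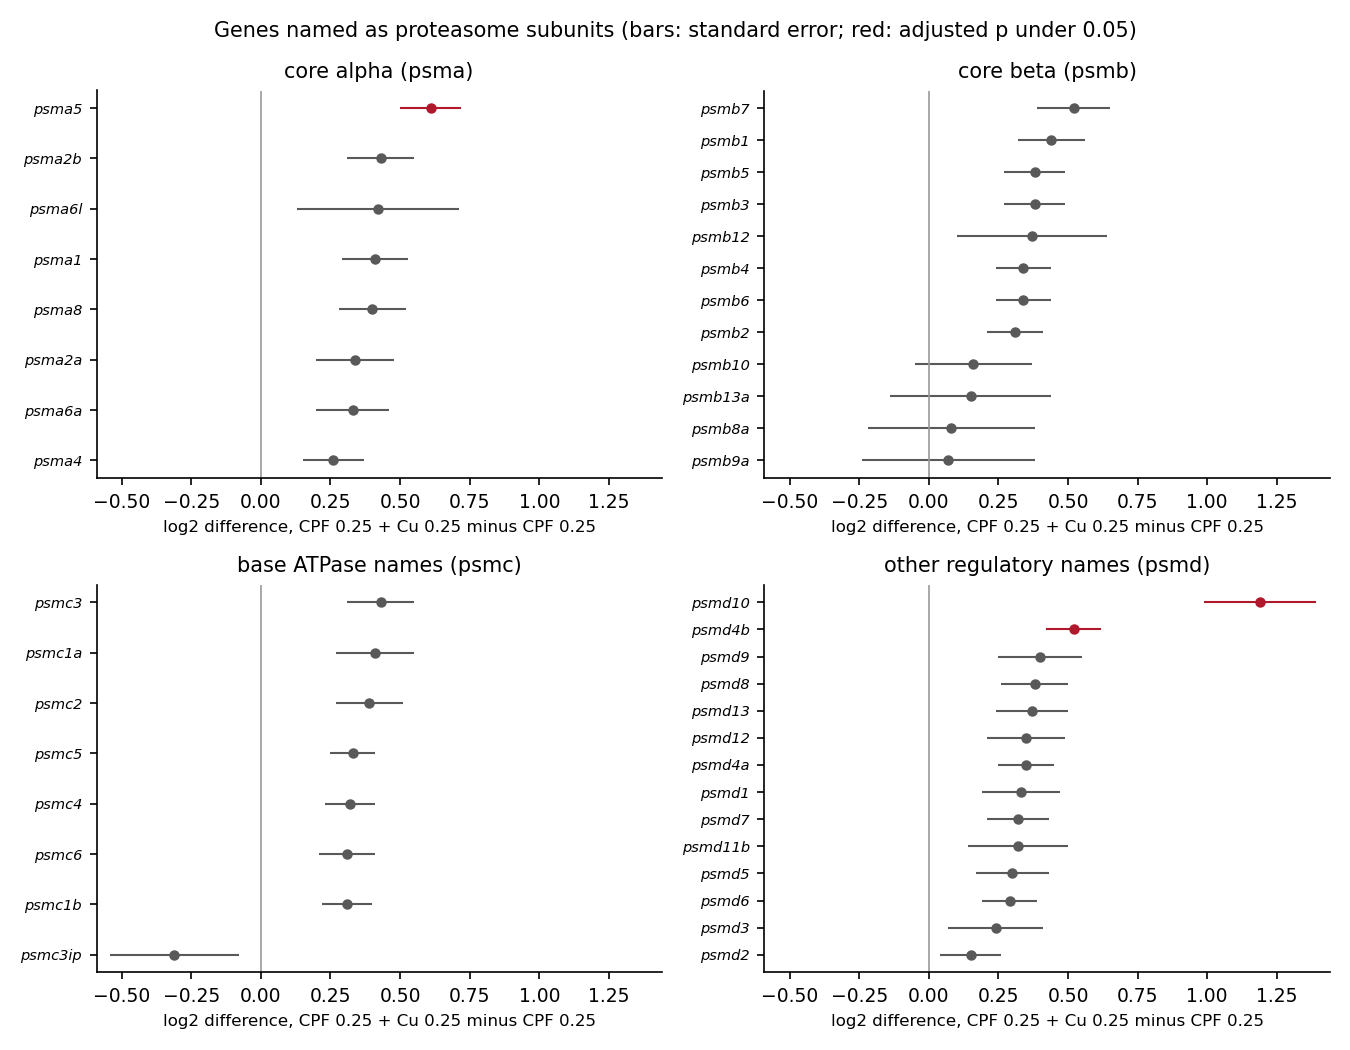
Log2 difference, CPF 0.25 + Cu 0.25 minus CPF 0.25, with its standard error, for the 42 genes with proteasome subunit names, in 4 panels by kind. All but psmc3ip lie right of 0, most between 0.25 and 0.52, and psmd10 stands apart at 1.19.

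In the oxidative stress and glutathione list, 1 of 31 measured genes passed, against 0.399% of all probe sets. Of the 31 genes 8 were higher at an unadjusted p under 0.05, against 7.91% of all genes, 0 were lower, and the median was 0.12. Groups did not overlap for 11 of the 31 with higher mixture values and for 4 with lower ones, against 7.89% and 7.82% of all probe sets. The 4 lower genes were nqo1, gpx1b, gstp1.2 and blvrb, at -0.56, -0.53, -0.34 and -0.17, and none of them passed. The called gene was transaldolase, taldo1, of the pentose phosphate pathway that supplies NADPH, with a log2 difference of 0.62 ± 0.12. Its call was lost with no title batch term, and with an estimated correlation (adjusted p = 0.0674 in limma). Other called genes are given here for their roles, gathered after their values were seen. The gene sqor, for the mitochondrial enzyme that oxidises hydrogen sulfide, had 7.52, 8.17 and 8.32 in the mixture and 6.67, 6.42 and 6.98 in CPF 0.25 (2.58-fold, log2 difference 1.37 ± 0.29, adjusted p 0.0355 in limma). The gene txnl1, for a thioredoxin-like protein that binds the proteasome cap, had 6.47, 6.70 and 6.62 in the mixture and 5.69, 5.6 and 6.10 in CPF 0.25. Its difference of 0.83 ± 0.14 (adjusted p 0.0153 in limma) was the 1 of the 42 that still passed without CPF 0.25 replicates 1 and 3, at 1.03 (adjusted p 0.0327 in limma), a p whose spread comes from other groups. It did not pass in 4 of the 6 fits that left out 1 array. The members of the oxidative stress list with the smallest p after taldo1 were pgd, gsr and txnrd3, with 0.61 ± 0.16, 0.92 ± 0.27 and 0.52 ± 0.15. None of these 3 passed, and their groups did not overlap. Another 2 called genes were ciapin1, for cytosolic iron-sulfur cluster assembly, at 0.58 ± 0.13, and tmx1, for a thioredoxin-related protein of the endoplasmic reticulum, at 0.42 ± 0.09. Without CPF 0.25 replicates 1 and 3 sqor had 1.58 and taldo1 0.68, and neither passed.

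Of 23 metal genes measured 1 passed, against 0.399% of all probe sets. The zinc importer gene slc39a3 had 5.98, 5.80 and 5.93 in the mixture and 5.25, 5.29 and 5.08 in CPF 0.25 (1.61-fold, log2 difference 0.69 ± 0.15, adjusted p 0.0475 in limma). The slc39a3 call was lost when only these 2 groups were fitted, with no filter, with median centring, with a trended and robust prior, and when title batch 3 was left out. Among ferritin heavy chain genes, which encode the iron store, fthl28, fthl27 and fthl30 had larger differences with wide errors. The ferritin heavy chain gene fth1a did not share them, with a difference of 0.03 ± 0.11 and overlapping groups. For fthl28 the levels were 11.42, 10.78 and 11.75 in the mixture and 7.64, 7.18 and 8.49 in CPF 0.25, and the difference of 3.69 ± 1.27 did not pass (adjusted p 0.270 in limma). Its relatives fthl27 and fthl30 had 1.15 ± 0.40 and 1.61 ± 0.61, also without overlap between groups and without passing. The control fish differed among themselves in fthl28, with a mean of 8.58 ± 2.26 (SD, n = 3). In the metal list 19 of 23 differences were positive (57.5% of all genes), 7 were higher at an unadjusted p under 0.05 (7.91% of all genes), and the median was 0.13.

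From the macrophage and lysosome lists 1 gene each passed the test, of 11 and 33 measured, against 0.399% of all probe sets. With an estimated correlation both missed it, c1qc with an adjusted p = 0.0602 and ctsba with an adjusted p = 0.0586 in limma. The complement gene c1qc, expressed by microglia and macrophages, had 6.69, 7.48 and 7.27 in the mixture and 6.03, 5.96 and 5.83 in CPF 0.25 (2.42-fold, log2 difference 1.27 ± 0.26, adjusted p 0.0311 in limma). The scavenger receptor gene marco had 7.77, 8.74 and 7.75 in the mixture and 6.64, 7.30 and 6.70 in CPF 0.25, a difference of 1.30 ± 0.32 that missed the threshold (adjusted p 0.0957 in limma). The lysosomal protease cathepsin B, ctsba, had 11.40, 11.64 and 11.36 in the mixture and 11.03, 10.67 and 10.75 in CPF 0.25 (1.60-fold, adjusted p 0.0451 in limma). Legumain, lgmn, and cathepsin D, ctsd, had 0.61 ± 0.17 and 0.31 ± 0.11 and did not pass. Of all 11 microglia and macrophage markers, 8 had positive differences (57.5% of all genes) and 3 were higher at an unadjusted p under 0.05 (7.91% of all genes). Their mean level was 8.50 to 8.85 in the mixture and 8.06 to 8.49 in CPF 0.25, nearly touching. The log2 of their summed levels overlapped, at 15.16 to 15.27 in the mixture and 15.1 to 15.32 in CPF 0.25. Without CPF 0.25 replicates 1 and 3 c1qc had 1.05 and ctsba 0.77, and neither passed. The part of the number of macrophages in the lysosomal differences was not tested.

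The remaining higher calls had varied roles. They were nfkbib, which holds NF-kappaB in the cytoplasm, at 0.53 ± 0.11, pa2g4b, a growth-related nucleolar protein gene, at 0.49, the nucleotide kinase gene cmpk at 0.44, and stambpa, a deubiquitinase gene of endosomes, at 0.54 ± 0.12. The stambpa groups overlapped, with 7.06, 7.43 and 7.68 in the mixture and 6.75, 7.14 and 6.90 in CPF 0.25, and stambpa, pa2g4b, cmpk and ciapin1 did not pass in a fit without batch terms.

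The gene for the target of the insecticide did not pass. Both groups received CPF 0.25, and the arrays measure RNA, not enzyme activity. Acetylcholinesterase, ache, was at 7.39, 6.89 and 7.55 in the mixture and at 7.70, 6.90 and 7.89 in CPF 0.25, with overlapping groups and a difference of -0.24 ± 0.29. Without CPF 0.25 replicates 1 and 3 its sign turned, to 0.39.

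Other lists described the tissue around these genes. Among 43 immediate early genes, which respond within minutes to stimulation, 8 differences were positive, 9 were lower at an unadjusted p under 0.05 (3.37% of all genes) and the median was -0.24. That median was -0.07 without CPF 0.25 replicates 1 and 3 and turned to 0.08 within title batch 1. The phosphatase gene dusp1 had 8.48, 9.24 and 8.34 in the mixture and 9.69, 9.69 and 9.65 in CPF 0.25 (-0.98 ± 0.28, adjusted p 0.171 in limma), and none of the list passed. Among DNA replication and cell cycle genes 12 of 58 were higher at an unadjusted p under 0.05 (7.91% of all genes), led by rrm1 (0.93 ± 0.27), pcna (0.53 ± 0.16) and dut (0.76 ± 0.25), and none passed. Their median was 0.10, 0.03 with no filter and 0.26 within title batch 1. Oxidative phosphorylation genes had a median of 0.13 with 75 of 86 positive (57.5% of all genes), and ribosomal protein genes a median of 0.04 over 77. In all, 12 of the 38 lists held a called gene, while 32 of all 6448 genes were called. Lists share members, and calb2a counted in both the olfactory sensory neuron and the calcium-binding list. Over the 26 lists without a called gene the medians ran from -1.49 for exocrine pancreas to 0.26 for ionocyte and mucous cell markers.

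The same copper concentration had been tested without CPF and with CPF 0.1 and 0.6, on 18 arrays that share none with the 6 above. Averaged over those 3 levels, copper changed 175 of 10531 probe sets (1.66%), 53 higher and 122 lower. Each level alone gave fewer calls in limma. Cu 0.25 against control gave 37 (0.351%), 8 higher and 29 lower. CPF 0.1 with Cu 0.25 against CPF 0.1 gave 0 (0%), with 715 at an unadjusted p under 0.05, and the same comparison at CPF 0.6 gave 0 (0%), with 654.

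Most genes that copper lowered at CPF 0.25 were also lower with copper at the other levels. Of the 25 lower probe sets 22 passed there too, and of the 17 higher ones 4 did. The 26 are 61.9% of the 42 and 14.9% of the 175. The sign was shared by 41 of the 42, with ddx61 the exception, and by 170 of the 175 (97.1%), against 66.1% of all probe sets. Both estimates come from 1 fit that shares batch terms and the spread between arrays. The lower probe sets had a median difference of -1.13 at CPF 0.25 and -0.74 at the other levels, and the higher ones 0.61 and 0.23. Because the 42 were picked for their size at CPF 0.25, a smaller median elsewhere follows in part from that choice. For gng13b the values were -0.87 ± 0.17 and -0.90 ± 0.09, for pvalb5 -1.39 ± 0.28 and -1.35 ± 0.16, and for sult2st1 -1.71 ± 0.38 and -1.86 ± 0.21. For ctsba they were 0.67 ± 0.15 and 0.66 ± 0.08. By contrast psmd10 had 1.19 ± 0.20 and 0.35 ± 0.11, sqor 1.37 ± 0.29 and 0.43 ± 0.16, and slc39a3 0.69 ± 0.15 and 0.01 ± 0.09. Proteasome genes had a median of 0.34 at CPF 0.25, against 0.27 without CPF, 0.23 at CPF 0.1 and 0.20 at CPF 0.6. In the average over those 3 levels 14 of the 42 proteasome genes passed, against 1.66% of all probe sets.

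**Figure D4:**
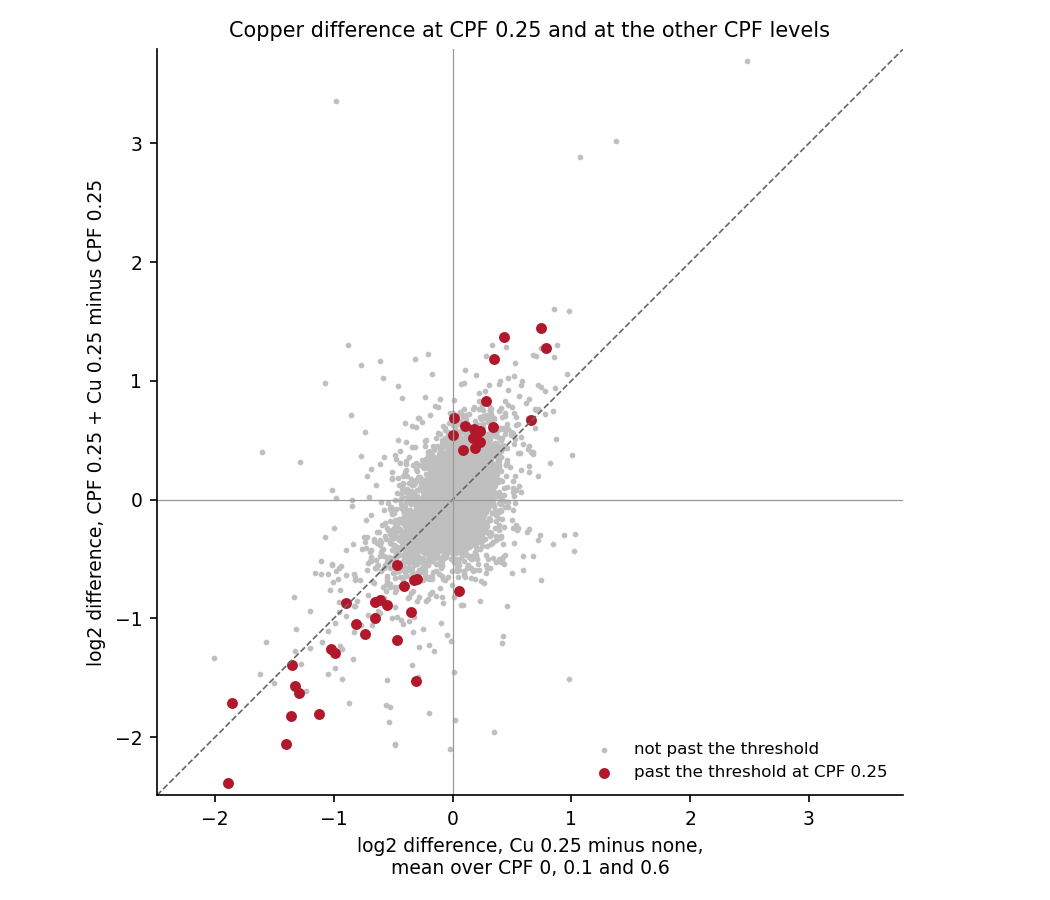
Log2 difference made by Cu 0.25 at CPF 0.25 (vertical) against the mean difference at CPF 0, 0.1 and 0.6 (horizontal) for 10531 probe sets, with the 42 past the threshold at CPF 0.25 in red and a dashed line of equal differences. Many red points below 0 lie near the line or somewhat under it. Some lie far under it, such as ddx61 (-0.77 against 0.05) and 1 unnamed probe set (-1.53 against -0.3). Most red points above 0 lie close to the vertical axis.

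A test of the difference itself asked whether copper acted differently with CPF 0.25, and called no probe set. Against the copper difference without CPF, limma called 0 of 10531 (0%), while 422 had an unadjusted p under 0.05, with a smallest adjusted p of 0.972. Against the mean of the other 3 levels it also called 0 (0%), while 368 had an unadjusted p under 0.05, with a smallest adjusted p of 1. With standard errors of this size, moderate departures may go uncalled. For psmd10 the copper difference was 0.84 ± 0.23 log2 units greater at CPF 0.25 than at the other levels, for slc39a3 0.67 ± 0.17 greater and for taldo1 0.52 ± 0.14 greater, each with an adjusted p of 1. The retinoid-binding protein gene rbp2a had -0.82 ± 0.18 at CPF 0.25 (adjusted p 0.0501 in limma) and 0.02 elsewhere, a departure of -0.83 ± 0.21. The feedback inhibitor of the EGF receptor errfi1a had -0.72 ± 0.17 here (adjusted p 0.0824 in limma), with a departure of -0.71 ± 0.20. The genes psmd10, slc39a3, taldo1, rbp2a and errfi1a were among those with the smallest p in this same test. Large departures of these genes thus follow in part from that choice. The histone demethylase gene kdm5c had the smallest p against the copper difference without CPF, with 0.40 ± 0.11 at CPF 0.25 and -0.36 without CPF. For gng13b the departure from the other levels was 0.03 ± 0.19, and for calb2a -0.34 ± 0.34.

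Group levels were as follows for 4 of the called genes. In psmd10 the copper groups averaged 6.86 ± 0.29 at CPF 0.25 and 6.53 ± 0.28 without CPF, against 5.71 ± 0.21 in CPF 0.25 and 6.20 ± 0.10 in control fish (SD, n = 3 each). In dnajb1b they averaged 6.34 ± 0.15 and 5.94 ± 0.29, against 5.01 ± 0.06 in CPF 0.25 and 5.49 ± 0.85 in control fish. In sqor they averaged 8.0 ± 0.42 and 7.39 ± 0.34, against 6.69 ± 0.28 in CPF 0.25 and 6.94 ± 0.47 in control fish. In abhd2b the means were 5.86 ± 0.47 and 6.16 ± 0.20 in those copper groups, against 7.97 ± 0.27 in CPF 0.25 and 7.62 ± 0.29 in control fish.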

How the data were processed

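Log2 expression values of 30 arrays were used as deposited. The authors' method was GCRMA, per the submitters' processing notes (no version stated), and the log2 scale was inferred from their range, 1.09 to 15.73. GCRMA normalizes between arrays and shrinks low signals, so differences of dim probe sets are uncertain. Of 15617 probe sets, 115 controls were left out. Of the other 15502, 10795 had 1 gene symbol, 135 several and 4572 none in the annotation used here. Probe sets above 4 in at least 3 arrays were kept (10531).

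limma 3.58.1 in R 4.3.3 fitted 1 mean for each of the 10 groups plus fixed title batch terms over all 30 arrays. Group differences are fitted values, with Benjamini-Hochberg adjusted p-values over the 10531 probe sets and a threshold of 0.05. Replicates were numbered in accession order and not paired. Genes were read from their brightest probe set.

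Named genes were the 12 highest and 12 lowest called genes with groups that did not overlap, up to 4 genes of each of 38 lists with the smallest p, a fixed set of 26 genes, and up to 10 genes of each test of unequal copper differences. Members and lists were chosen with earlier results of these data known. List members caught by name patterns include a few genes outside the group. Alternatives covered the batch term, filter, normalization, prior, array weights and arrays left out. The number of arrays limits the precision.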

Additional observations from a re-analysis of the deposited data

How the results depend on the processing

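The count of 42 probe sets was within 1.5 times of itself with no title batch term, no filter or a filter at 6, quantile normalization, median centring, and a trended and robust prior. Quantile normalization gave 12 higher and 30 lower, against 17 and 25, and a fit without the batch term gave 8 and 24. The count was 26 with title batch as a random block, 8 without the arrays of title batch 3, 73 with array weights, 19 with the 2 groups fitted alone, 0 within title batch 1, 0 within title batch 2 and 9 without CPF 0.25 replicates 1 and 3. Of the 19 with the 2 groups fitted alone, 12 were among the 42. Leaving out single arrays gave 0 to 16. The random block and the array weights used all 30 arrays, and the others used fewer. Within title batch 1 each of the 2 groups compared had 1 array. The count of unequal copper differences against no CPF was 2 within title batch 2, 2 without CPF 0.25 replicates 1 and 3, and 0 to 1 with single arrays left out. Against the other levels it was 1 without CPF 0.25 replicates 1 and 3, and 0 to 1 with single arrays left out. The count of 175 at the other levels was 76 without title batch 3, 306 with array weights, 0 within title batch 1 and 23 within title batch 2, and 106 to 302 with single arrays left out (106 without Cu 0.25 replicate 2, 109 without control replicate 1, 287 without CPF 0.6 replicate 3, 302 without Cu 0.25 replicate 3). Signs turned within title batch 1 for socs1a (0.07), socs3a (0.10), nfkbiab (0.36), prss1 (1.32) and ela2l (0.23), and without CPF 0.25 replicates 1 and 3 for ache (0.39), prss1 (0.53) and ela2l (0.15). None of these had passed, and the cause was not tested. The median of the olfactory sensory neuron list was -0.13 with no filter, which adds 2 dim genes. No paired analysis was possible because the labels carry no replicate numbers. Dim probe sets, such as or42c4, are close to the array's lower limit.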
